A study of Mus musculus with 34 samples.

Results

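The CpG islands described here stayed low in antibody-bound DNA on every array of normal adult mouse tissue but were raised in ES cells that had been differentiated in culture. The measure was methyl-DNA immunoprecipitation (mDIP), in which fragments bound by an antibody to methylated cytidine are compared with input DNA on a CpG island microarray. Neighbouring probes separated by no more than 500 bases were joined, groups of at least 3 probes were treated as an island, and the island methylation score was the mean Z-score of its probes, where the Z-score sets each probe's log ratio of bound to input against all probes of the same array. An island counted as gained when its score was below 0 on all 16 adult arrays and above 0.5 on at least 1 of 5 arrays of differentiated ES cells. By this rule 200 islands were gained, which is 1.47% of the 13616 islands scored and 4.93% of the 4053 islands below 0 on all adult arrays. The other 3853 islands of that class are the comparison set used below, and the levels on the adult and differentiated arrays, which chose the members, are given as description only.

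The 34 arrays came from C57Bl/6 adults aged 3 months (colon, pancreas, brain, kidney, liver, lung, muscle and spleen, 2 arrays each, with both sexes represented), whole embryos at 8.5, 9.5, 10.5, 11.5 and 12.5 dpc (1 array each), undifferentiated ES lines EB5, J1 and TT2 (1 array each), differentiated ES cells, 2 teratomas, sorted pancreatic β cells and the tumour-derived islet lines Min6 and aTC (1 array each). Among the differentiated cells, embryoid bodies were aggregates of TT2 cells grown without LIF. Retinoic acid treatment was used to obtain neuro-ectodermal cells, and the labels give TT2 as their parent line while the study's methods give J1. Endoderm (2 arrays) and mesoderm (1 array) came from EB5 cells carrying reporters targeted to Gsc and Sox17, were exposed to Activin A and were sorted on those reporters and a surface marker, so that each represents a single engineered line. The teratomas are labelled as J1-derived, the methods name another line, and they grew under the skin of NOD-SCID mice, whose own cells can be part of the tissue. Labels do not tie arrays to separate cultures, so all p-values below measure the spread between these arrays, and their number limits the precision.

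CpG islands are short CG-rich stretches, many of them at gene starts, that escape the wave of DNA methylation at implantation and normally stay unmethylated through later life. Methylation of an island at a promoter goes with stable silencing, and islands of developmental regulators are often bound by Polycomb in ES cells. Islands inside genes or away from genes can be methylated in a tissue-dependent manner without silencing the gene nearby.

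Several gained islands reached across the annotated start of their gene. The sequences from RefSeq (GRCm38.p6) below run from 250 bases before to 50 bases after the start of genes whose island held probes in that window. The first 5 (Slc32a1, a vesicular transporter of inhibitory neurotransmitters, Dtx1, a Notch pathway ubiquitin ligase, Zfp709, a zinc finger gene, Slc25a29, a mitochondrial amino acid carrier, and Prdm13, a regulator of neuronal identity) were above 0.5 on 4 of the 5 differentiated arrays. Myd88, the adaptor of Toll-like receptors, is shown because its island was the one called higher in teratomas in both comparisons described later. Capitals mark the CG dinucleotides that the antibody can read when they are methylated.
Slc32a1, chr2:158610508-158610807, plus strand: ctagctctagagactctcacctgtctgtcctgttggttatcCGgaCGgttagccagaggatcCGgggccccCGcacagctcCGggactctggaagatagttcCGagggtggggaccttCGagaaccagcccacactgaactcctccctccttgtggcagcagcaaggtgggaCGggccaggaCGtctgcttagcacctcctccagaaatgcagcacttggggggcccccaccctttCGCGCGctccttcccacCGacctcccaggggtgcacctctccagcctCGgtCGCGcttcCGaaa
Dtx1, chr5:120711620-120711919, minus strand: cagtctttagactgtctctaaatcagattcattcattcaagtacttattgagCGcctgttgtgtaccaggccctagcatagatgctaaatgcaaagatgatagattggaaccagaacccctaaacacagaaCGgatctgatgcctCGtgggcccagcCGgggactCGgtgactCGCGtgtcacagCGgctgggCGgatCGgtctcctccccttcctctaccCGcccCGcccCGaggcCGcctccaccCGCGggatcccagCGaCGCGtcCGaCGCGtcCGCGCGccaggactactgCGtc
Zfp709, chr8:71881818-71882117, plus strand: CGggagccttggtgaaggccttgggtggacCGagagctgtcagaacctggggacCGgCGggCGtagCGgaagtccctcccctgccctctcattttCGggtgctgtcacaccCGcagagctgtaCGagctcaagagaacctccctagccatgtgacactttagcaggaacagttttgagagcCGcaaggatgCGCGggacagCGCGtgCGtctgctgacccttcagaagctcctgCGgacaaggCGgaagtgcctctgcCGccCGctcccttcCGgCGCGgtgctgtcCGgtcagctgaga
Slc25a29, chr12:108835827-108836126, minus strand: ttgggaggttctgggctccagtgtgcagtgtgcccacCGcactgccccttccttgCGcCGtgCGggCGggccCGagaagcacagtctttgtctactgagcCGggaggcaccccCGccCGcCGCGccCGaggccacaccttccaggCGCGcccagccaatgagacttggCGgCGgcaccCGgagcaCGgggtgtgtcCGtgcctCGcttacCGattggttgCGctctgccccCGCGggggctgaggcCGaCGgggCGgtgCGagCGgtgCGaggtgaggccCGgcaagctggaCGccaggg
Prdm13, chr4:21685914-21686213, minus strand: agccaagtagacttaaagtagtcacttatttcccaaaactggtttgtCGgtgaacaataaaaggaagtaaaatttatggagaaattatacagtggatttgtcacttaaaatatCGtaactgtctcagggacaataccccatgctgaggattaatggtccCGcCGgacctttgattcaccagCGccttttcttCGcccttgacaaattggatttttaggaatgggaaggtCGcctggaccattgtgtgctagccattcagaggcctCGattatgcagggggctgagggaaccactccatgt
Myd88, chr9:119339969-119340268, minus strand: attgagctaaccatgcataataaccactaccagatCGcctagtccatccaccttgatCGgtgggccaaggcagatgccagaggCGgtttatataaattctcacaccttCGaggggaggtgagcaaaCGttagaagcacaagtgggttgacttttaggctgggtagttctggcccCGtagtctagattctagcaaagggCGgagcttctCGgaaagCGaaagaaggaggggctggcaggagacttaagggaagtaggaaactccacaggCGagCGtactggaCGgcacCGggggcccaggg
The windows held between 8 (Prdm13) and 32 (Slc25a29) CG dinucleotides. Across the 59 gained genes with probes at the start and a single window in the reference, the median was 21 CG dinucleotides and 61.7% G plus C. The 2070 windows of the comparison islands had a median of 24 and 63.3%, and all 22862 windows in the reference a median of 7 and 52.3%. The ratio of observed to expected CG had a median of 0.747 in gained genes, 0.835 in the comparison genes and 0.374 in all windows. Searched on both strands, GGGCGG occurred in 71.2% of gained windows against 74.1% of comparison windows and 35.2% of all windows. CCAAT occurred in 45.8%, 41.6% and 38.2% and TATAAA in 3.39%, 5.17% and 14.8%, in the same order. None of the 3 motifs is contained in another, and a match is only an occurrence of those letters.

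The gained islands were small and often lay away from gene starts. Their median span was 578.5 bases (191 to 5250) with a median of 5 probes (3 to 40), against 817 bases and 7 probes in the comparison islands. Islands of exactly 3 probes made up 15.5% of the gained set (31 of 200) and 4.39% of the comparison set, and a mean over few probes varies more. A probe within the window around a gene start was present in 84 gained islands (42.0%) and in 2953 comparison islands (76.6%). By the array's annotation, 118 gained islands lay inside a gene (59.0%, against 61.7%), 31 at a promoter (15.5%, against 24.3%), 3 at a divergent promoter (1.5%, against 3.37%), 9 downstream of a gene (4.5%, against 1.95%) and 39 had no gene (19.5%, against 8.67%). Read the other way, 10.5% of the adult-unmethylated islands without a gene were gained (39 of 373) and 10.7% of those downstream (9 of 84), compared with 4.73% inside genes (118 of 2495) and 3.2% at promoters (31 of 968). In this annotation, inside a gene includes islands across a gene start, such as those of Dtx1, Zfp709, Slc25a29 and Prdm13. These classes therefore do not divide gene bodies from gene starts. By chromosome, the gained share ranged from 2.21% on chromosome 1 to 7.74% on chromosome 13. No island on chromosome X was below 0 on all adult arrays.

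Endoderm 1 contributed the most gained islands and the retinoic acid array the fewest. Above 0.5 were 133 islands on endoderm 1, 99 on endoderm 2, 87 on embryoid bodies, 85 on mesoderm and 32 on retinoic acid. Of these, 50, 12, 19, 9 and 8, in the same order, were above 0.5 on that array alone. The mean score over all 200 was 0.624 on endoderm 1, 0.481 on endoderm 2, 0.363 on mesoderm, 0.332 on embryoid bodies and -0.0179 on retinoic acid. Without endoderm 1 the rule found 150 islands, so 50 members rest on that array, and the other endoderm array had a median of 0.131 on them. By the file headers, endoderm 1 was the only array from its version of the Feature Extraction software. It was also alone on its slide and scan day, so its cells and this processing cannot be told apart. Software version was not used as a block in any fit.

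**Figure D1:**
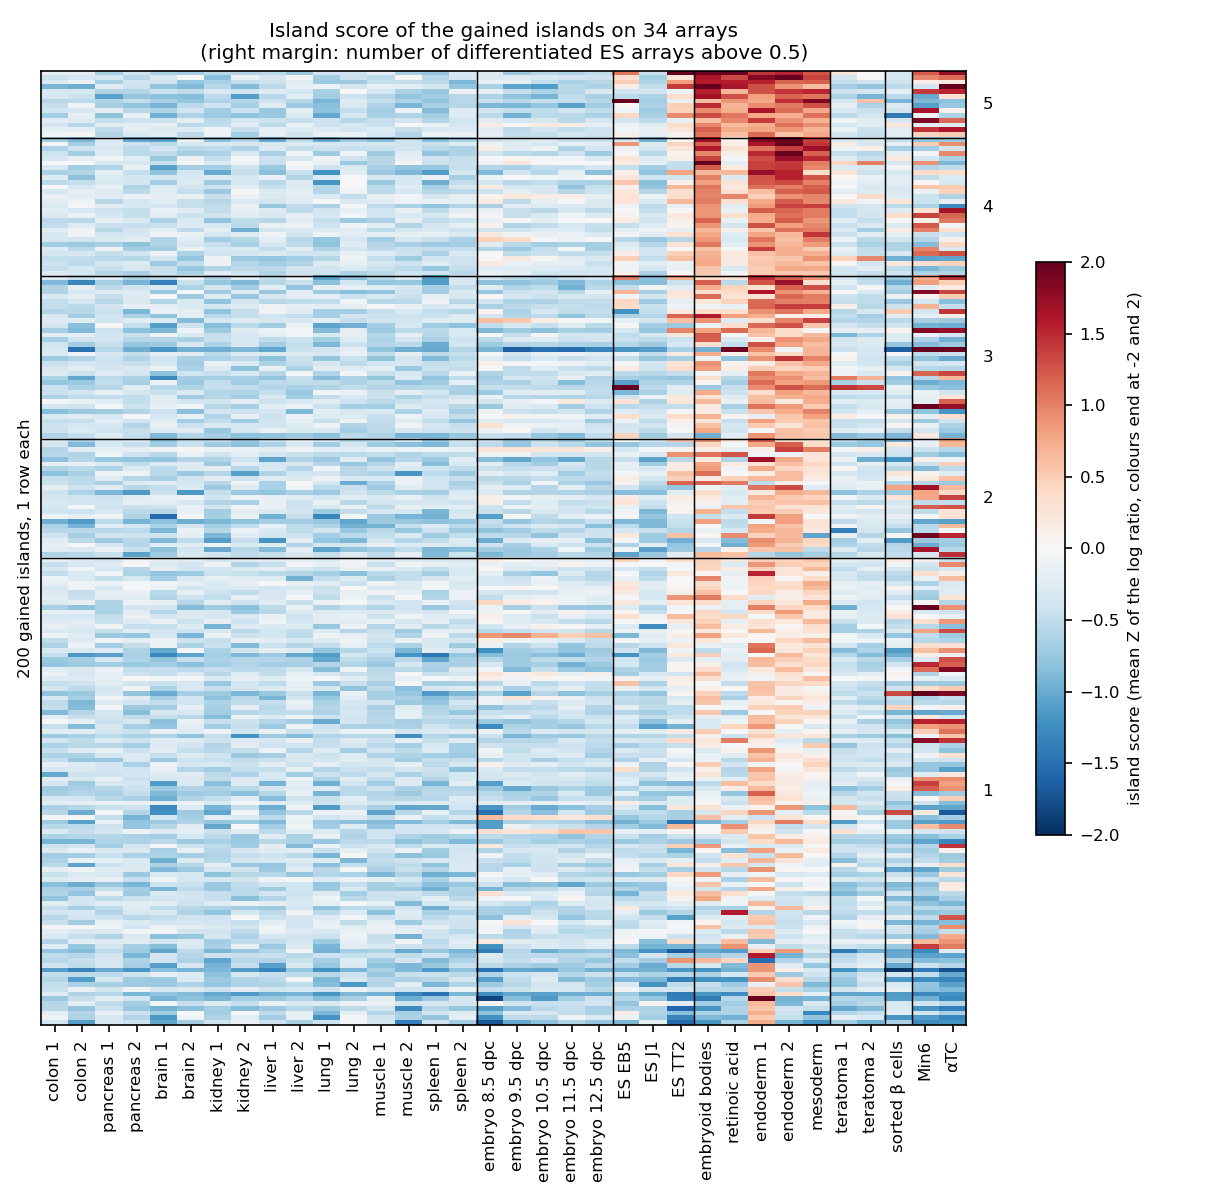
Scores of the 200 gained islands (rows, ordered by how many differentiated arrays were above 0.5, as numbered on the right) on each of the 34 arrays (columns), red above 0 and blue below. Adult columns are below 0 by the rule, the embryo columns are mostly below 0, and the 5 differentiated columns differ in how many islands they raise, from 32 on retinoic acid to 133 on endoderm 1.

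Sharing between differentiations was partial. A total of 102 islands (51.0%) were above 0.5 on at least 2 arrays, 77 on at least 3, 43 on at least 4 and 14 on all 5. The commonest shared patterns were embryoid bodies with both endoderm arrays and mesoderm but without retinoic acid (27 islands), and both endoderm arrays with mesoderm (17 islands). Endoderm and mesoderm overlapped closely, since 70 islands were above 0.5 on both endoderm 2 and mesoderm, which is 70.7% of the endoderm 2 islands and 82.4% of the mesoderm islands. Embryoid bodies shared 55 with mesoderm (63.2% of the former and 64.7% of the latter), and retinoic acid shared 21 with embryoid bodies (65.6% and 24.1%). By parent line, 170 islands were above 0.5 on an EB5-derived array, 98 on a TT2-derived array and 68 on both.

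Each differentiated array was also held out of the choice. Of the 181 islands chosen on the other 4 arrays, 68 (37.6%) were above 0.5 on embryoid bodies, against 0.491% of the adult-unmethylated islands not chosen. The same figures were 24 of 192 (12.5%, against 0.207%) for retinoic acid, 83 of 150 (55.3%, against 1.28%) for endoderm 1, 87 of 188 (46.3%, against 0.31%) for endoderm 2 and 76 of 191 (39.8%, against 0.233%) for mesoderm. On all 5 held-out arrays the share was therefore above that of the islands not chosen, and retinoic acid had the lowest share.

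The cross-line comparison asked whether islands gained in cells from one parent line were also above embryos in cells from the other. limma with Benjamini-Hochberg adjustment over all 13616 islands was fitted to 31 arrays in 6 groups (adult tissue, embryos, undifferentiated ES, EB5-derived, TT2-derived and teratomas). Of the 98 islands gained on TT2-derived arrays, 74 (75.5%) were higher in EB5-derived cells (3 arrays) than in embryos (5 arrays) and 2 were lower, with a median difference of 0.86. The background was 12.7% higher among all islands, and 7.36% among the adult-unmethylated islands not gained on TT2-derived arrays. Of the 170 islands gained on EB5-derived arrays, 64 (37.6%) were higher in TT2-derived cells (2 arrays) than in embryos and 0 were lower, while 95 had an unadjusted p under 0.05, all of them higher (1462 of all 13616 islands and 166 of the 3883 adult-unmethylated islands not gained on EB5-derived arrays were higher at that level). Here the background was 5.03% of all islands and 1.11% of the adult-unmethylated islands not gained on EB5-derived arrays, and the median difference over the 170 was 0.47. Both comparisons share the embryo arrays.

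Array slide and day limit these comparisons. No embryo array shared a slide or a scan day with a differentiated array, so group and batch cannot be told apart for them directly. With slide as a fixed block, retinoic acid, endoderm 1 and mesoderm, each alone on its slide, added nothing to the differences. Endoderm 2 and embryoid bodies were linked to embryos only through adult and undifferentiated arrays. The counts then fell to 8 of 98 and 15 of 170, and the shares over all islands were not counted for this fit. Without embryoid bodies, the array with the clearest gain of the TT2 pair, the counts were 21 of 32 (65.6%, over the islands gained on retinoic acid) and 23 of 170 (13.5%).

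Slc32a1 carried the highest mean of any gained gene and was one of only 2 genes with more than 1 gained island. The island inside the gene (13 probes, mm9 chr2:158439467-158440727) scored 2.44 in embryoid bodies, 2.66 after retinoic acid, 1.42 and 1.52 in endoderm and 1.26 in mesoderm. Its adult scores ran from -0.781 to -0.166 with a median of -0.541, and its embryo scores were -0.295, -0.731, -0.561, -0.619 and -0.484 from 8.5 to 12.5 dpc. Undifferentiated cells gave 1.06 in EB5, -0.461 in J1 and 2.27 in TT2, the teratomas 0.24 and 0.0137, and the tumour lines 1.22 (Min6) and 1.76 (aTC). By the choice of this island, differentiated cells lay wholly above adults, and they also lay above embryos. EB5 and TT2 lay above adults and embryos as well, while J1 lay within the embryo range. Undifferentiated cells exceeded embryos by 1.50 ± 0.295 (SE, limma, adjusted p = 0.0059, with a range of 1.56e-08 to 0.146 over 21 settings, 1.56e-08 without J1, with a difference of 2.20, and 0.0757 without TT2). This difference also did not pass from the arrays of the 2 groups alone (0.146) or with normexp background correction (0.0621).

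The other gained islands of Slc32a1 lay at the promoter. The upstream one (mm9 chr2:158435410-158435873) scored 0.65, 0.668, 1.74, 1.56 and 0.323 on embryoid bodies, retinoic acid, endoderm 1, endoderm 2 and mesoderm. The one across the start, whose sequence is printed above (mm9 chr2:158436419-158437394), scored 0.688, 0.189, 0.588, 0.707 and 0.704. Along the locus the raised signal was not even. Within the island inside the gene, the probe 3017 bases from the start reached 3.59 after retinoic acid, whereas a probe 27 bases from the start was already at 0.768 on the mean of adult arrays and at 0.743 in embryos.

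**Figure D2:**
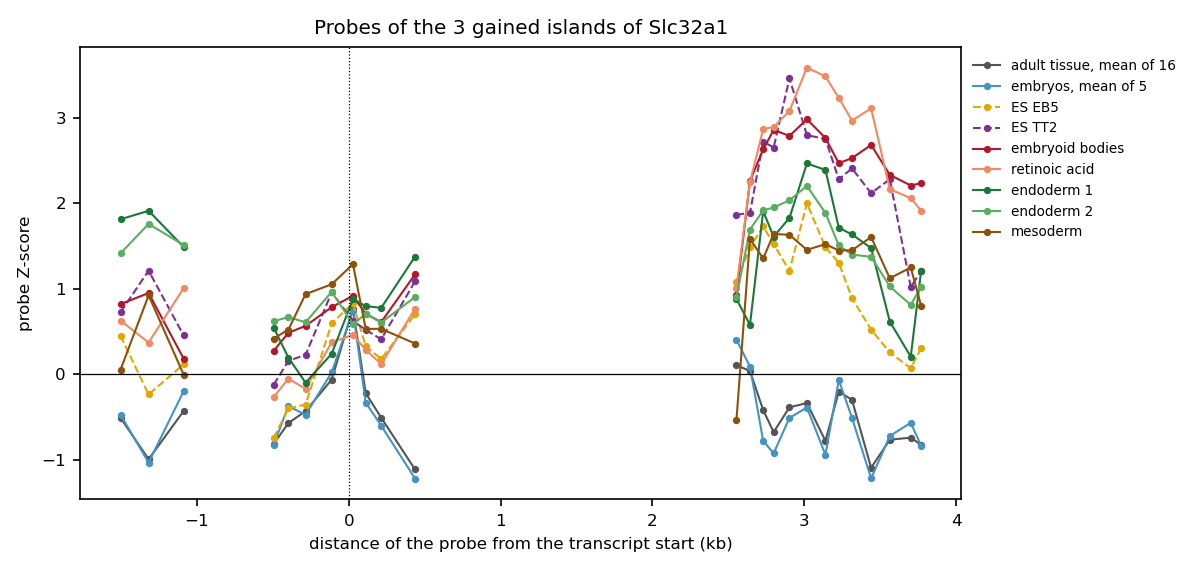
Probe Z-scores (vertical axis) across the 3 Slc32a1 islands against distance from the gene start in kb, for the means of adult and embryo arrays, undifferentiated EB5 and TT2 and each differentiated array. Differentiated and undifferentiated TT2 values separate from adults and embryos in the island inside the gene from 2729 to 3769 bases downstream, and the probe 27 bases from the start is above 0 in every series.

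Ptger4, a prostaglandin E receptor gene, was the other gene with more than 1 gained island. Its island inside the gene (4 probes, mm9 chr15:5192574-5192871) scored 2.10 in embryoid bodies, 1.64 after retinoic acid, 1.28 and 0.88 in endoderm and 0.617 in mesoderm, with embryos from -1.11 to -0.548. Undifferentiated cells were at 0.128 (EB5), -0.487 (J1) and 1.40 (TT2), all above the highest embryo. The difference from embryos was 1.14 ± 0.273 (SE, limma, adjusted p = 0.0182, with a range of 0.00027 to 0.249 over 21 settings). Without J1 the difference was 1.56 (adjusted p = 0.00027). It did not pass without TT2 (0.249), without EB5 (0.0619) or without the 10.5 dpc embryo (0.0534). The same held from the arrays of the 2 groups alone (0.142) and with normexp background correction (0.149). The promoter island of Ptger4 (mm9 chr15:5193865-5194561) was above 0.5 in embryoid bodies only (0.572), and its other differentiated scores lay between -0.425 and -0.0155.

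The 14 islands above 0.5 on all 5 arrays included 5 of developmental transcription factors (35.7%), against 10.0% of all gained islands and 3.5% of the comparison islands. Dlx4, a distal-less homeobox gene (mm9 chr11:95004513-95004753), scored 1.56, 1.57, 1.53, 1.17 and 1.19 on embryoid bodies, retinoic acid, endoderm 1, endoderm 2 and mesoderm, against -0.615 to -0.156 in embryos. Its differentiated values, above 0.5 by the choice, did not overlap those of embryos. Few islands of either set were above 0.5 on any embryo array (2.0% of the gained and 0.311% of the comparison islands). The island at the start of Dlx4, also below 0 in all adult arrays, was not gained and had a differentiated mean of -0.484 ± 0.352 (SD, n = 5), so the raised signal in Dlx4 was away from its start. Irx4 (downstream island), Nhlh2 and Tfap2e, other developmental regulators, had differentiated means of 0.989, 0.914 and 0.859.

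Genes outside that class were among the highest as well. Nefm, the medium neurofilament subunit (15 probes, mm9 chr14:68741536-68743210), scored 0.614 in embryoid bodies, 0.89 after retinoic acid, 0.758 and 1.47 in endoderm and 1.84 in mesoderm. It scored 2.32 in undifferentiated EB5 but -0.674 in J1 and -0.146 in TT2. Undifferentiated EB5 was therefore above all of its EB5-derived cells. Rem1, a small GTPase gene (mm9 chr2:152452780-152453320), scored 1.68, 1.30, 0.813, 1.16 and 1.06 on embryoid bodies, retinoic acid, endoderm 1, endoderm 2 and mesoderm. Rbpjl, a partner of a pancreatic acinar transcription complex (Rbpsuhl on the array, mm9 chr2:164229878-164230385), scored 1.49, 0.683, 0.946, 1.03 and 1.27. The unnamed island at mm9 chr5:120752306-120752782 scored 1.55, 0.668, 1.28, 1.45 and 1.52, with both undifferentiated parent lines below 0 (-0.388 in EB5, -0.0811 in TT2).

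**Figure D3:**
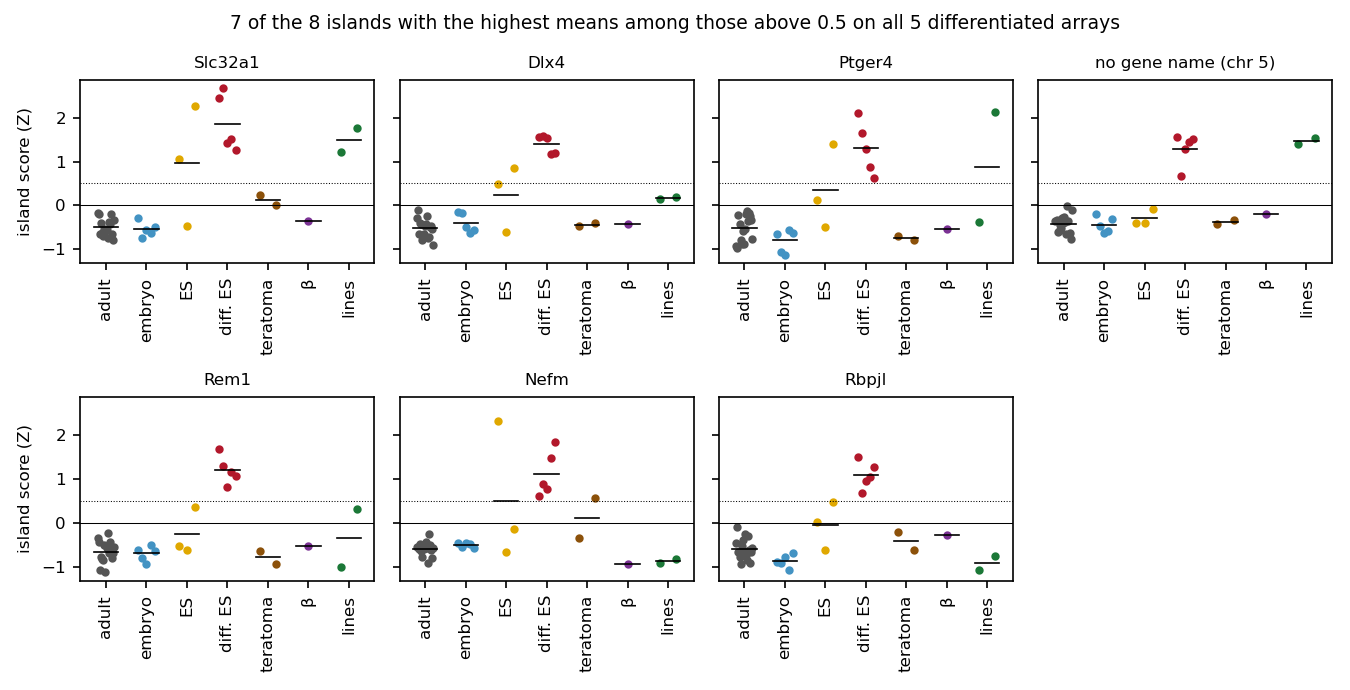
Island scores of 7 of the 8 gained islands with the highest means among those above 0.5 on all 5 differentiated arrays. Points are single arrays by group, short lines are group means, the dotted line is the 0.5 threshold and the last columns are sorted β cells (β) and the lines Min6 and aTC. The differentiated points lie above 0.5 by the choice of these islands, and the embryo points of each island lie below them. Over all gained islands 2.0% were above 0.5 on any embryo array, and 0.311% of the comparison islands.

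Islands particular to a differentiation by score had other genes. Above 0.5 on both endoderm arrays and no other were 11 islands, led by Nipal2 (1.69 and 0.765), an island without a gene on chromosome 17 (1.06 and 1.31) and 9330158H04Rik (1.40 and 0.812). Their mesoderm scores were 0.261, -0.258 and -0.0103. Mesoderm alone raised an unnamed chromosome 19 island (0.738) and Tdrd7, a tudor domain gene of germ granules (0.726), and these were near the threshold, with endoderm 1 at 0.431 and 0.427. Embryoid bodies alone raised Mlxipl, a glucose-responsive transcription factor (1.03), and Slc34a2, a phosphate transporter (0.971). With 1 array for most differentiations, whether these patterns differ between differentiations was not tested.

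Retinoic acid alone raised 8 islands, of which 5 belonged to developmental transcription factors (62.5%, against the 10.0% and 3.5% given above). Among them, Ebf2, Gata3 and Sox17 scored 0.917, 0.903 and 0.598. Sox17, the endoderm regulator whose locus was targeted in the EB5 cells, scored 0.383 and 0.183 in the endoderm arrays. Over all 32 islands above 0.5 after retinoic acid, 11 (34.4%) were of such factors, while the 50 islands raised on endoderm 1 alone included 2 (4.0%, near the 3.5% of the comparison islands) and 15 without a gene (30.0%).

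By gene class, the gained share was above 10% in developmental regulators, neurotransmission and transporter genes, and low in housekeeping genes. The signalling and germline shares were also above 10%, but counts in these and in the immune, axon guidance and matrix lists were small. For none of the lists was the share tested against the share over all adult-unmethylated islands. Among adult-unmethylated islands, gained were 9 of 80 of homeobox genes (11.2%), 11 of 75 of other developmental transcription factors (14.7%), 5 of 47 of signalling genes (10.6%), 7 of 50 of neurotransmission and channel genes (14.0%, from 5 genes) and 9 of 67 of solute carriers (13.4%). The share was 2 of 171 for housekeeping genes (1.17%), 4 of 79 for Zfp genes (5.06%), 2 of 19 for germline genes (10.5%), 3 of 31 for blood and immune genes (9.68%), and none of 24 for axon guidance genes or of 34 for matrix and adhesion genes. These shares are read against 4.93% over all adult-unmethylated islands, they use the values that chose the members, and the lists differ in how many of their islands lie at a gene start. Both classes of developmental transcription factors together gave 20 of 155 (12.9%).

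**Figure D4:**
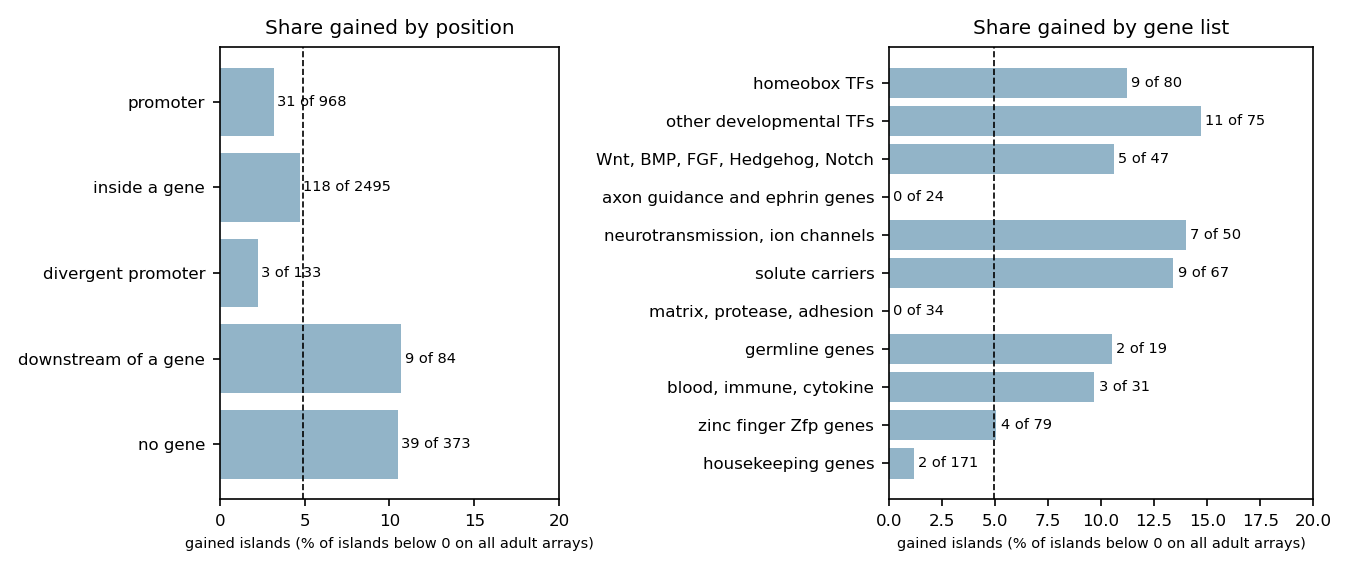
Bars give the gained share (%) of the islands below 0 on all adult arrays, by annotated position (left) and by gene list (right), with the counts beside each bar and a dashed line at the share over all such islands (4.93%). Islands downstream of genes (10.7%) and without a gene (10.5%) lie right of the line and promoter islands (3.2%) left of it, and other developmental transcription factors reach 14.7% while housekeeping genes stay at 1.17%. The annotated class inside a gene includes islands across a gene start.

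Members of these classes differed in pattern. Nhlh2, a helix-loop-helix factor of hypothalamic neurons, scored 0.607, 0.959, 1.40, 0.916 and 0.691 on embryoid bodies, retinoic acid, endoderm 1, endoderm 2 and mesoderm. Prdm13 scored 1.05, 0.172, 1.11, 1.01 and 1.20, and Dtx1 0.882, 0.325, 0.748, 1.09 and 1.04, so both missed the threshold on retinoic acid. Fgf20, a fibroblast growth factor, scored 0.746, 0.439, 0.305, 1.17 and 1.29. Among transporters and channels, Kcnab3, a potassium channel subunit, scored 1.21, 0.172, 1.36, 1.43 and 0.968, Slc25a29 0.541, -0.0526, 0.519, 0.532 and 0.538, and Slc22a3, an organic cation transporter, 0.825, 0.134, 0.509, 0.442 and 0.514. All 3 were lowest after retinoic acid.

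Of the immune genes, Ltb, a lymphotoxin, scored 1.16, -0.147, 0.72, 1.21 and 0.877, while Cd14, a lipopolysaccharide co-receptor, passed on endoderm 2 only (0.51). Zfp709 was at 2.02 in embryoid bodies and -0.224 after retinoic acid, with 1.36, 1.41 and 1.02 in the EB5-derived cells. Zfp263 went another way, at 0.666 in embryoid bodies and -1.52 in endoderm 1. The 2 housekeeping members passed on 1 endoderm array each, Mrpl58, a mitochondrial translation release factor, on endoderm 2 (1.04) and Cox16, an assembly factor of the respiratory chain, on endoderm 1 (0.886). The germline gene Nanos1, an RNA-binding regulator, lay just inside the threshold at 0.501 on endoderm 1, next to an unnamed island at 0.503, and just outside it were Tm9sf3 and Ercc3, both at 0.499 on endoderm 1.

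A gained island did not mark its whole gene. For 57 gained islands the gene held another scored island, and for 15 of them another island was below 0 on all adult arrays and not gained, while 5 had another gained island on the same gene, those of Slc32a1 and Ptger4. Of the gained islands away from the start, 7 sat in a gene whose start island was below 0 on all adult arrays and not gained. Within an island, every probe was above 0 on the highest array in 150 islands (75.0%) and every probe above 0.5 in 79 (39.5%), and in 9 (4.5%) no more than 1 probe was above 0.5. The highest score was between 0.5 and 0.6 in 37 islands and above 1 in 78.

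In embryos the gained islands stayed near the adult level on average. Their mean score was -0.412 ± 0.0302 (SD, n = 5), against -0.425 ± 0.0225 for the comparison islands on the same arrays. A total of 150 of 200 (75.0%) were below 0 on every embryo array, a lower share than the 85.0% of the comparison islands. Above 0.5 on any embryo array were 4 (2.0%), against 0.311% of the comparison islands. Those 4 were Rab3a, Babam1, Atxn7l3b and Szrd1. Rab3a, a synaptic vesicle GTPase, scored 0.861, 0.954, 0.715, 0.474 and 0.591 from 8.5 to 12.5 dpc and 0.818 in embryoid bodies, but -0.900 in EB5, -0.227 in J1 and 0.116 in TT2. The embryo and undifferentiated ranges did not overlap, and the undifferentiated arrays fell by 1.06 ± 0.197 relative to embryos (SE, limma, adjusted p = 0.00415, with a range of 0.00169 to 0.275 over 21 settings, 0.00169 without J1, with a difference of -1.11, and 0.0775 without EB5). With slide or scan day as a fixed block, where the difference rests on TT2 and the 8.5 dpc embryo that share both, it was -0.75 and did not pass (adjusted p = 0.104 and 0.275, limma).

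Babam1, a subunit of a DNA repair complex (5430437P03Rik on the array), scored 0.635, 0.391, 0.335, 0.225 and 0.332 in embryos and 0.587 in embryoid bodies. Its undifferentiated scores were -0.759, -0.572 and -0.645, without overlap, a fall of 1.04 ± 0.178 (SE, limma, adjusted p = 0.00185, with a range of 0.000699 to 0.102 over 21 settings, and 0.000699 without J1, with a difference of -1.09). Atxn7l3b scored 0.616 and 0.533 at 8.5 and 9.5 dpc and 0.141 to -0.0596 later. Szrd1 scored between 0.253 and 0.556 in embryos and 0.529 after retinoic acid, its single array above the threshold. For these 4 islands the embryo level was not like that of adult tissue.

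In the scanner values of undifferentiated ES cells, the gained islands were above the comparison islands in EB5 and TT2 but not on the J1 array. Mean scores were -0.212 in EB5, -0.0935 in TT2 and -0.524 in J1, against -0.463, -0.457 and -0.465 for the comparison islands. Islands above 0 numbered 55 in EB5, 88 in TT2 and 1 in J1, and above 0.5 were 8, 21 and 0, or 27 on any array (13.5%, against 0.13% of the comparison islands). The scanner values of the J1 array correlated with its deposited processed values at r = 0.113 over probes, compared with 0.894 to 0.991 on the other arrays. The called differences and their counts are therefore also given without the J1 array. With the deposited values 100 islands were gained, and their mean on the undifferentiated arrays was -0.0136 ± 0.0645 (SD between arrays). The scanner values gave -0.276 ± 0.222. A J1 array as far below EB5 and TT2 as in the scanner values would not go with that smaller SD. Of the 100 islands, 37 were higher than in embryos and 2 lower (limma, adjusted p under 0.05). Whether the J1 line lacks the gain is thus not settled by the scanner values.

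**Figure D5:**
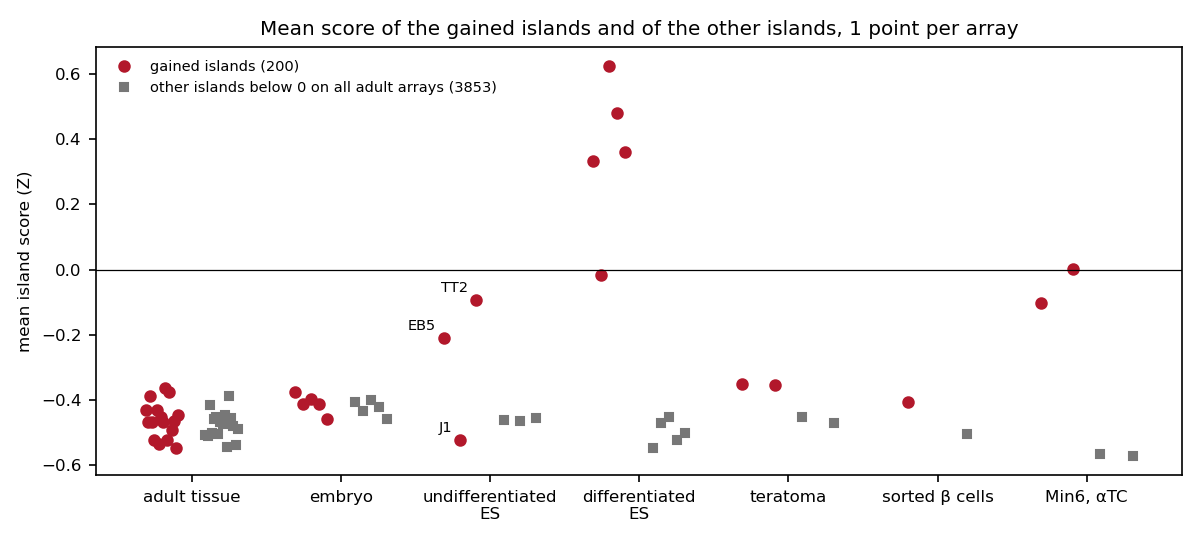
Mean island score, from scanner values, of the 200 gained islands and of the 3853 comparison islands, 1 point per array, by group. The 2 sets lie together in adult tissue and embryos, while the gained islands lie higher in undifferentiated EB5 and TT2 and, by the rule, in differentiated cells.

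Undifferentiated cells (3 arrays) and embryos (5 arrays) differed at 12 gained islands, 7 higher and 5 lower (limma, Benjamini-Hochberg), with a background of 1.34% higher and 2.26% lower among all islands and 0.337% and 1.69% in the comparison islands. Without J1, 38 were higher (19.0%) and 3 lower, against 2.78% and 4.05% of all islands, and 9 of the 14 islands gained on all 5 arrays were higher. TT2 and the 8.5 dpc embryo shared a slide and a scan day. With slide or scan day as a fixed block, the difference rests on these 2 arrays alone, and was 2.56 for Slc32a1 and -1.28 for Babam1. From the arrays of the undifferentiated and embryo groups alone, 0 were higher and 4 lower, and the share over all islands was not counted for this fit. Among the islands called, the largest rise besides Slc32a1 and Ptger4 was in Irx4, a homeobox gene of the heart ventricle. Its downstream island (mm9 chr13:73409229-73409710) scored 0.418 in EB5, -0.646 in J1 and 0.950 in TT2, and -0.530, -0.953, -0.541, -0.543 and -0.636 in embryos. The groups overlapped through J1 alone, and the difference was 0.88 ± 0.229 (SE, limma, adjusted p = 0.0279, with a range of 4.69e-05 to 0.304 over 21 settings). Without J1 the difference was 1.32 (adjusted p = 4.69e-05). It did not pass with slide as a fixed block (0.0508), without TT2 (0.304), without EB5 (0.18), or without the 9.5 or 10.5 dpc embryo (0.0798 and 0.0534). The same held from the arrays of the 2 groups alone (0.166) and with arrays scaled by median and MAD (0.066).

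Islands gained more widely had higher medians in TT2 and EB5, but not in the scanner values of the J1 array. The median TT2 score was 0.371 for the 14 islands gained on all 5 arrays, 0.106 for the 77 gained on at least 3 and -0.172 for the 98 gained on 1 array, and the medians in EB5 were 0.077, -0.0699 and -0.364. In J1 they were -0.565, -0.504 and -0.517. In adult tissue the medians of these 3 sets were -0.488, -0.428 and -0.47.

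Teratomas, which differentiate from ES cells inside a mouse, had mean scores over the gained islands of -0.351 and -0.354. Above 0 on either teratoma were 27 islands (13.5%, against 5.16% of the comparison islands) and above 0.5 were 6 (3.0%, against 0.156%). Teratomas (2 arrays) differed from embryos at 2 gained islands, both higher, against 0.257% higher and 0.0441% lower among all islands and 0.0779% each way in the comparison islands, and 15 had an unadjusted p under 0.05, 6 of them higher (limma), against 1046 of all 13616 islands, 499 of them higher. Because cell types of the host and of the graft are mixed in bulk DNA, a lower share of methylated cells and a lower level in each cell cannot be told apart, which holds for every array here.

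The 2 islands were those of Atf4, a stress-responsive transcription factor, and Myd88. Atf4 (10 probes, mm9 chr15:80085473-80086623) scored 1.43 and 1.33 in the teratomas and -0.551 to -0.464 in embryos. It was at 2.19 in undifferentiated EB5 and at 0.951, 1.27 and 1.11 in endoderm 1, endoderm 2 and mesoderm, but at -0.533 in J1, -0.231 in TT2, -0.728 in embryoid bodies and -0.458 after retinoic acid. Every array of EB5 or EB5-derived cells and both teratomas were thus far above embryos, while the remaining ES arrays were below 0. The teratoma difference from embryos was 1.89 ± 0.344 (SE, limma, adjusted p = 0.00683, with a range of 2.11e-12 to 0.257 over 19 settings, and 0.225 and 0.257 without the first or second teratoma).

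Myd88 (5 probes, mm9 chr9:119248676-119249149) scored 1.02 and 0.681 in the teratomas, 0.34, -0.57, 0.925, 0.912 and 0.602 in embryoid bodies, retinoic acid, endoderm 1, endoderm 2 and mesoderm, and -0.663, -0.729 and -0.772 in EB5, J1 and TT2. Embryos lay between -0.696 and -0.152, and no teratoma value overlapped embryos or undifferentiated cells. The difference was 1.29 ± 0.205 from embryos (SE, limma, adjusted p = 0.00199, with a range of 0.000833 to 0.177 over 19 settings) and 1.57 ± 0.223 from undifferentiated cells (limma, adjusted p = 0.000667, with a range of 0.000142 to 0.165 over 19 settings). Without the first teratoma the adjusted p-values were 0.177 and 0.143, and without J1 the difference from undifferentiated cells was 1.57 (adjusted p = 0.000142).

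Between teratomas and undifferentiated cells, Myd88 was the single gained island called (background 0.0734% higher and 0.0147% lower among all islands, and 0.026% each way in the comparison islands), and 29 had an unadjusted p under 0.05, 6 of them higher (limma), against 1416 of all 13616 islands, 598 of them higher. Without J1, 13 gained islands were lower in teratomas and 1 was higher, against 0.94% and 2.16% of all islands. From the arrays of the 2 groups alone Myd88 was not called (limma, adjusted p = 0.165), nor was it with normexp background correction (0.0553).

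The tumour-derived islet lines also raised part of the gained set. Min6, an insulinoma line, was above 0.5 at 42 gained islands (21.0%, against 5.24% of the comparison islands), and aTC, a glucagonoma line, at 58 (29.0%, against 7.84%). Sorted β cells were above 0.5 at 4 (2.0%, against 0.234%). With 1 array each there is no replicate check. Cdkn2a, a tumour suppressor encoding cell cycle inhibitors (3 probes, mm9 chr4:88922488-88922864), scored 2.44 in Min6, 2.14 in aTC and -1.65 in β cells, and 1.94 after retinoic acid, 0.938 in endoderm 1 and 0.683 in mesoderm, against -0.952 in embryoid bodies and -0.0721 in endoderm 2. This Cdkn2a island is annotated inside the gene. The promoter island of Cdkn2a (9 probes) was not below 0 on all adult arrays and was not gained. Its differentiated mean was -0.575 ± 0.0575 (SD, n = 5) and its embryo mean -0.594, and its tumour line scores are not given here. An unnamed chromosome 19 island scored 2.00 and 1.75 in Min6 and aTC, and Dmbx1, a homeobox gene of the midbrain, 1.94 and 1.53. Among the 32 islands above 0.5 after retinoic acid, 15 were above 0.5 in Min6 (46.9%) and 17 in aTC (53.1%), and for the 133 islands above 0.5 on endoderm 1 the numbers were 34 (25.6%) and 45 (33.8%).

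Signal strength on the arrays was of the same order in the gained and comparison islands. On differentiated arrays the input signal of gained islands was 4.38 times background at the median array (2.93 to 7.18), against 4.96 for the comparison islands, and the bound signal was 3.13 times background against 2.43. On embryo arrays the bound signal was 1.92 and 1.95 times background.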

How the data were processed

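Per the labels, bound DNA was labelled red and input DNA green on Agilent CpG island arrays. The authors ran Feature Extraction, with background subtraction and linear normalization, and deposited the scanner files, whose log10 ratio of bound to input was used here, together with intensity columns of both channels, which served for the background checks and the normexp setting. A deposited table of the authors' processed values, read as a score (a Z-score per probe, which the methods say took probe melting temperature into account), was used as an alternative. That correction could not be rebuilt for the scanner values without probe sequences. Headers of 6 arrays name mm9 and 28 name no build. The larger grid held 97651 probes and the smaller 88737, and 97159 with a position were used. The arrays lay on 23 slides scanned on 16 days. Median input signal was 3.07 to 7.34 times background per array and bound signal 1.54 to 5.59 times.

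From these, control and flagged probes were removed, log ratios were turned into Z-scores per array (mean and SD), and islands were scored as means of their probes. Islands were built from the positions of the larger grid, and mm9 positions printed are those of the island's probes in the mm9 files. Gene names are those of 1 array's annotation, updated through RefSeq: of 162 named gained islands, 126 held a current symbol, 31 matched by accession, 2 by synonym and 3 not at all. Groups were tested with limma 3.58.1 in R 4.3.3 (lmFit and eBayes, Benjamini-Hochberg over all islands, called at an adjusted p under 0.05), and scores were computed with Python 3.11.15. On simulated data with 200 of 13616 islands changed by 1, the calls recovered 81.5% (EB5-derived against embryos), 78.5% (TT2-derived against embryos), 85.0% (undifferentiated against embryos), 75.5% (teratomas against embryos) and 68.5% (teratomas against undifferentiated). Of the calls, 2.86% to 8.05% were unchanged islands. The simulated noise was independent, with a single SD per island and no slide, day or deviating array, so these rates do not cover such effects.

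Members and gene lists were chosen with earlier results of these data known. Genes named in the text are, by rule, the 8 highest of those gained on all 5 arrays, leaders of islands raised by a single differentiation, the largest called differences, up to 5 islands high in embryos, the 3 highest in the tumour lines among those below 0 in β cells, 2 per gene list and 4 at the threshold. Some items this rule names are not reported here. Tfap2e, Ebf2, Gata3 and Sox17 were added after their values were seen. Alternatives covered scaling, background, island building, thresholds, batch blocks and leaving out each array.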

Additional observations from a re-analysis of the deposited data

Results flagged for a closer look

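In a check for an array far from the others of its group, run over 57 groups of values, 1 stood apart, where chance gives about 1 in 20. It was the Irx4 island at 9.5 dpc, which scored -0.953 while the other embryos lay between -0.636 and -0.530, a gap of 0.749 of the group's range.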

How the results depend on the processing

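The number of adult-unmethylated islands also changed with the setting, and is given beside each count. The number of gained islands was 200 of 4053 and became 132 of 2121 with the median and MAD and 548 of 4088 with normexp of median signals. With the deposited table it was 100 of 2345, and with only probes whose input was well above background 100 of 2366. It was 125 of 3236 with at least 5 probes and 438 of 6739 with the mean of each adult tissue below 0. At thresholds of 0.25 and 0.75 it was 417 and 120, both of 4053. Leaving out 1 array each gave 150 (without endoderm 1) to 224. Islands above 0.5 on at least 2 arrays (102) were 58 in the deposited table and 84 to 99 without 1 array, and those on all 5 (14) were 2 with normexp and 7 in the deposited table. The means in embryos, undifferentiated cells and teratomas (-0.412, -0.276, -0.352) were -0.373, -0.0136 and -0.293 in the deposited table. Normexp gave -0.236, -0.131 and -0.266, and the median of an island's probes -0.385 in teratomas. Without 1 array they ran from -0.421 to -0.401, -0.368 to -0.153 and -0.354 to -0.351.

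TT2-gained islands higher in EB5-derived cells (74 of 98) were 36 of 72 with MAD, 43 of 53 in the deposited table, 47 of 58 with bright probes, 49 of 65 with at least 5 probes, 113 of 201 at 0.25, 8 with slide and 34 with scan day as a fixed block, and 21 to 74 without 1 array (lowest without embryoid bodies). EB5-gained islands higher in TT2-derived cells (64 of 170) were 28 of 97 with MAD, 39 of 85 in the deposited table, 32 of 87 with bright probes, 15 with slide as a fixed block, and 23 to 72 without 1 array (lowest again without embryoid bodies). Islands differing between undifferentiated cells and embryos (12, 7 of them higher) were 3 with MAD (1 higher), 4 with normexp (3), 39 in the deposited table (37), 6 with bright probes (6), 7 with at least 5 probes (4), 19 at 0.25 (10), 7 at 0.75 (5), 4 from the arrays of both groups alone (0), and 2 (without EB5) to 41 (without J1) without 1 array, with 4 without TT2. Those between teratomas and embryos (2) were 0 with normexp, 1 with bright probes, 8 from both groups alone and 0 to 3 without 1 array. Those between teratomas and undifferentiated cells (1, higher) were 0 with normexp, 17 in the deposited table (1 higher and 16 lower), 0 with bright probes, 0 from both groups alone, and 0 to 14 without 1 array (14 without J1). The cause of these shifts was not tested, apart from stricter rules leaving fewer islands.

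The mean score in β cells, Min6 and aTC (-0.406, -0.103 and 0.00121) was -0.372, -0.232 and -0.188 with normexp and -0.283, 0.00552 and 0.178 in the deposited table. Normexp, islands built on mm9 positions and the background shares without J1 were chosen after seeing the data. Normexp on mean signals was not run, since some files hold no mean signal, and teratoma differences could not be fitted with slide or day as a fixed block. No paired analysis was possible because the groups compared share no replicate number that ties their samples.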
